A study of Homo sapiens with 6 samples.

Results

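Long intergenic noncoding RNAs were followed in gastric cancer cells depleted of the glycolytic enzyme alpha-enolase (ENO1). The genes described here carry a symbol made of LINC and a number and were kept where they averaged 0.5 FPKM or more across the 6 libraries, where FPKM are fragments scaled by exon length and library size. This selection kept 183 of the 847 LINC-named genes among the 30716 genes in the table. Because the members were selected on their symbol and mean FPKM, their levels are given as a description. All libraries were labeled as SNU16, a line established from a human gastric carcinoma. The cells were infected with a lentivirus carrying a short hairpin RNA and selected with puromycin. The hairpin was a control in the shcon group (3 libraries) and targeted ENO1 in the ENO1-knockdown group (shENO1, 3 libraries). The 6 libraries thus rest on 1 cell line. The labels do not state whether the 3 libraries of a group came from separate cultures. The p-values therefore measure a spread that may be technical.

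Long intergenic noncoding RNAs are transcribed by RNA polymerase II from loci between protein-coding genes, are mostly spliced and polyadenylated like messenger RNAs, and are usually less abundant than these. Some act in the nucleus on the transcription of nearby or distant genes, some bind proteins or microRNAs in the cytoplasm, and a few loci first named LINC were later found to encode microproteins. The symbol itself states only the position of a locus, and for most of the members no function is established. Several have been studied in tumors, including gastric cancer.

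ENO1 was measured first, since it checks the labels. Its level was 323, 312 and 386 FPKM in the shcon libraries and 99.5, 84.9 and 91.1 FPKM in the shENO1 libraries, and the groups did not overlap. The log2 fold change, here always the difference of shENO1 minus shcon in log2(FPKM + 1), was -1.88 (standard error 0.11, adjusted p = 0.000425 by limma, with an exact two-sided permutation p of 0.1, the lowest possible for 3 against 3). Of the markers examined for the label of the cells, the epithelial keratins KRT8 and KRT18 lay between 85.9 and 278 FPKM, whereas KRT19 was at most 0.0515 FPKM, EPCAM lay between 0.819 and 1.59 FPKM and CDH1 between 0.602 and 1.21 FPKM. The leukocyte markers PTPRC and CD68 and the endothelial markers PECAM1 and VWF were at 0.108 FPKM or lower. The fibroblast markers DCN (2.46 to 10.1 FPKM), LUM (6.74 to 11.0 FPKM) and COL1A1 (3.45 to 7.75 FPKM) and the endothelial cadherin CDH5 (3.82 to 16.3 FPKM) were detected, and DCN, LUM, CDH5, KRT8 and KRT18 were lower in shENO1 cells. KRT19, EPCAM and CDH1 were thus low and fibroblast markers were detected in libraries labeled as a carcinoma line, whose identity was not tested. The part of these markers in the changes of the LINC-named genes was not tested. In such bulk libraries, fewer cells of a kind and less RNA per cell cannot be told apart.

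Of the 183 members, 17 were higher and 13 were lower in shENO1 cells, and 153 did not pass the test. A gene was called at an adjusted p under 0.05 by limma on log2(FPKM + 1), with Benjamini-Hochberg adjustment across the 15181 genes that reached 0.5 FPKM on average. The called members made up 16.4% of the list, against 29.5% of all genes tested. Members that were higher made up 9.29% against a background of 15.1%, and members that were lower 7.10% against 14.4%. The log2 fold changes ran from -0.91 for LINC01589 to 0.74 for LINC00342, so that no member reached an absolute value of 1 on this scale. The added 1 shrinks changes at low levels. LINC01133, with a ratio of mean FPKM of 0.403, had a log2 fold change of -0.60. The median log2 fold change of the members was 0.03, as for all genes tested (0.03), with 97 positive and 86 negative values. At an unadjusted p under 0.05 there were 54 members. The largest difference without a call was that of LINC00106, named after its values were seen, with 9.73 ± 4.73 FPKM in shcon and 4.71 ± 0.5999 FPKM in shENO1 (SD, n = 3 each, log2 fold change -0.79, limma adjusted p = 0.115). The 3 shENO1 values lay wholly above the 3 shcon values in 42 members and wholly below in 22, together 35.0% of the list against 46.6% of all genes tested. The counts depended on single libraries, among the members as among all genes tested. Leaving out shcon replicate 1, 2 or 3 gave 7, 12 and 18 higher and 2, 6 and 25 lower members. The shares called were 4.92%, 9.84% and 23.5% of the members against 12.3%, 19.6% and 38.4% of all genes. Leaving out shENO1 replicate 1, 2 or 3 gave 13, 4 and 6 higher and 8, 4 and 5 lower members. Here the shares were 11.5%, 4.37% and 6.01% against 29.7%, 9.94% and 12.2%. After each library was corrected for its trends with exon GC content and length (GC and length correction), 24 members were higher and 6 lower, beside 1727 and 1447 of all genes.

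**Figure D1:**
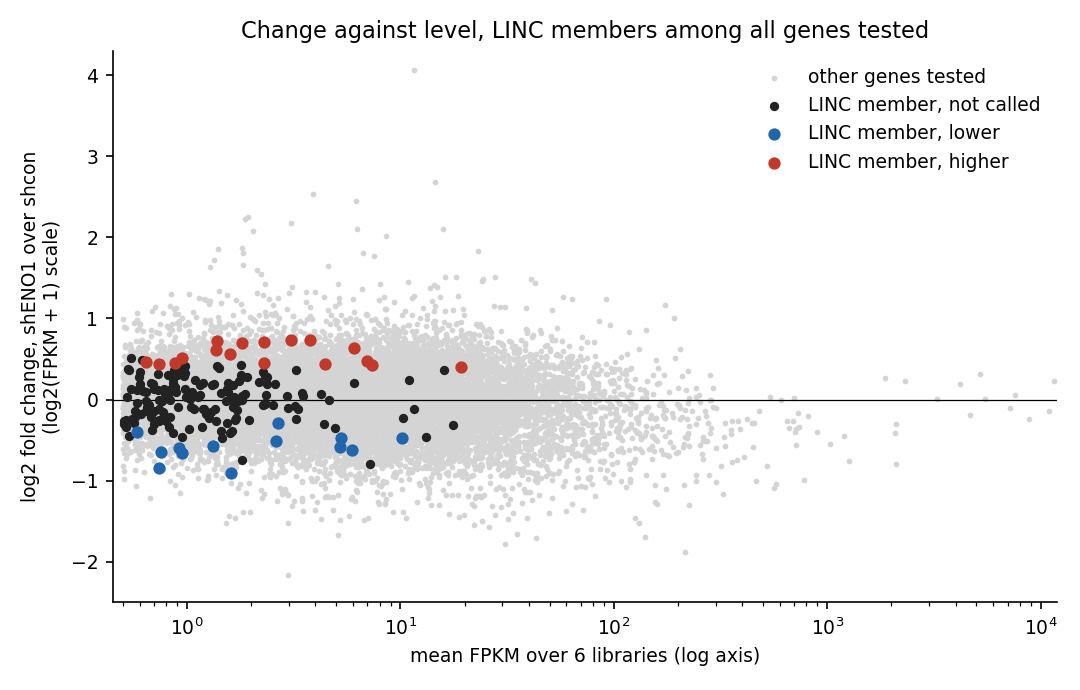
Log2 fold change of shENO1 over shcon (vertical axis, log2(FPKM + 1) scale) against mean FPKM over 6 libraries (horizontal log axis) for the 15181 genes tested. The 183 LINC members are drawn in black (not called), red (17 higher) or blue (13 lower) over the other genes in grey. They lie between -0.91 and 0.74 and at or below 19.3 FPKM.

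The members were expressed at low levels, and the share called was highest among the most abundant. Their median was 1.19 FPKM against 4.87 FPKM for all genes tested, and 81 members lay below 1 FPKM. Among these 81, 11.1% were called, beside 6.28% of all genes of that level. The called members below 1 FPKM include LINC01058, LINC02298, LINC00853 and LINC00662, which reached the minimum only through the group in which they were higher. The share of this band is therefore not support for a difference. The shares were 10.7% of 56 members beside 16.2% of all genes from 1 to 2 FPKM, 23.3% of 30 beside 28.3% from 2 to 5 FPKM, and 8 of 16 members beside 41.0% of all genes at 5 FPKM and above. Within these bands the members thus lay on either side of the background. As whole fragments recovered from the FPKM values, the members had a median of 55.2 fragments per library, and 19 had a mean below 10. Of the 30 called members, 10 had fewer than 50 fragments per library, 8 had 50 to 200 and 12 had more.

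**Figure D2:**
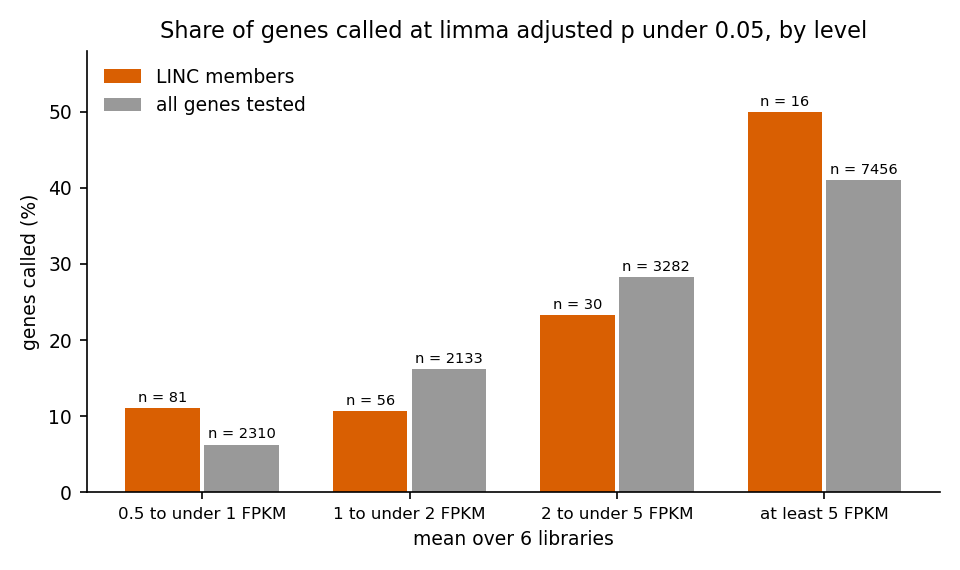
Share of genes called at an adjusted p under 0.05 (vertical axis, percent) in 4 bands of mean FPKM (horizontal axis), for LINC members in orange and all genes tested in grey, with the number of genes above each bar. The share of members called was 11.1% below 1 FPKM and 8 of 16 at 5 FPKM and above. Below 1 FPKM the called members include some that reached the minimum only through the group in which they were higher.

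Among the members that were higher, LINC00472, LINC00324 and LINC00239 kept this call under each of the 20 alternative settings tried. LINC00472 (ENSG00000233237, on the minus strand at chr6:71343427-71420745, GRCh38), an RNA studied as a tumor suppressor in breast cancer, was at 2.10, 2.30 and 1.80 FPKM in shcon and at 3.60, 4.21 and 4.50 FPKM in shENO1 libraries. Each shENO1 library lay above each shcon library. Its log2 fold change was 0.74 (standard error 0.11, adjusted p = 0.00536 by limma), and its ratio of mean FPKM was 1.99. These values rest on 594 to 1419 fragments per library, the deepest basis among the 20 called members with the largest changes. The fragments of LINC00472 were computed with a fitted length of 19875 bases, against an annotated exon length of 3443 bases, and depend on that fit. LINC00324 (ENSG00000178977, chr17:8220642-8224043, minus strand), an RNA studied in gastric and other cancers, was at 1.59, 1.56 and 1.36 FPKM in shcon and at 3.18, 2.83 and 3.33 FPKM in shENO1 libraries. The groups were again apart, and the log2 fold change was 0.72 (standard error 0.10, adjusted p = 0.00453). LINC00239 (ENSG00000258512, chr14:101730437-101732522, plus strand) was at 1.44, 0.881 and 1.13 FPKM in shcon and at 2.68, 2.68 and 2.11 FPKM in shENO1 libraries, a log2 fold change that came to 0.70 (standard error 0.13, adjusted p = 0.00988), on 9 to 29 fragments per library. Its neighbor PPP2R5C, a regulatory subunit of protein phosphatase 2A on the same strand 29276 bases away, was higher as well (0.38). The promoters of LINC00472 and LINC00324 are shown because both members kept their call in every alternative, as did LINC00239, for which no promoter is shown, and LINC01589, shown with the lower members. They come from RefSeq (GRCh38.p14, 250 bases before to 50 bases after the start), read on the strand of the gene, at chr6:71420696-71420995 and chr17:8223994-8224293, and no letters are in capitals because none of the motifs searched for (those of hypoxia-inducible factors, ATF4 and AP-1, spelled out with the promoter counts) was found in them.
LINC00472: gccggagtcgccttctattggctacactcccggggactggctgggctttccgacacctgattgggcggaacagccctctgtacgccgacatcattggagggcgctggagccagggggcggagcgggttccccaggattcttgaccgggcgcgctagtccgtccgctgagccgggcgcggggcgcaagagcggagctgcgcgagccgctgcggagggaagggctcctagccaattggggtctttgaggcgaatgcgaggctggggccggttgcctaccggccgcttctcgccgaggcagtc
LINC00324: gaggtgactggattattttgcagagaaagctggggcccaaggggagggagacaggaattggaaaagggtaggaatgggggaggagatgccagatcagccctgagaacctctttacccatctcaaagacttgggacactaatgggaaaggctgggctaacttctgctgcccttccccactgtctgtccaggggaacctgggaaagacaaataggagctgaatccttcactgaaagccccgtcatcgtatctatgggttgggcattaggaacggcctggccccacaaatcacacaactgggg

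LINC00342, LINC02733, LINC01560, LINC02477, LINC02448, LINC01881 and LINC00958 completed the 10 higher members of largest change. LINC00342 (ENSG00000232931) was at 2.74, 3.62 and 1.52 FPKM in shcon and at 4.40, 5.74 and 4.56 FPKM in shENO1 libraries. The groups did not overlap, but shcon replicate 3 was far below the other shcon libraries. The log2 fold change of 0.74 had the widest error of the higher members (standard error 0.21, adjusted p = 0.0367 by limma), and without shENO1 replicate 2 the adjusted p was 0.124. LINC02733 (ENSG00000255553) was at 0.656, 0.761 and 0.981 FPKM in shcon and at 1.58, 2.48 and 1.87 FPKM in shENO1 libraries, apart in both groups (log2 fold change 0.72, standard error 0.15, adjusted p = 0.0114, and 0.0502 without shENO1 replicate 2). LINC02448 (ENSG00000257230) was at 1.05, 1.18 and 1.03 FPKM in shcon and at 2.52, 1.82 and 1.98 FPKM in shENO1 libraries. It rose by 0.57 on the log2 scale (standard error 0.12, adjusted p = 0.0132, and 0.0526 without shcon replicate 1), on 10 to 24 fragments per library. SLC16A7, which encodes a transporter of lactate and pyruvate and lies 71845 bases from it on the opposite strand, was higher too (0.74). The promoters of LINC02448 and LINC02733 are shown because, among the higher members of largest change, these each hold the motif TGANTCA bound by AP-1 factors. The motif is in capitals and reads on either strand at the same place. They lie at chr12:59524103-59524402 and chr11:62082273-62082572 on the minus strand (RefSeq, GRCh38.p14).
LINC02448: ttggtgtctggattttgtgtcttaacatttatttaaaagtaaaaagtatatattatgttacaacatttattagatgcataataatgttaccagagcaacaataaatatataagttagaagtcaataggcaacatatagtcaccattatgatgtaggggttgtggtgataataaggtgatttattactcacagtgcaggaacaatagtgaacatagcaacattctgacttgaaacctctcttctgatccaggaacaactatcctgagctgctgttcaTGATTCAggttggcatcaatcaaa
LINC02733: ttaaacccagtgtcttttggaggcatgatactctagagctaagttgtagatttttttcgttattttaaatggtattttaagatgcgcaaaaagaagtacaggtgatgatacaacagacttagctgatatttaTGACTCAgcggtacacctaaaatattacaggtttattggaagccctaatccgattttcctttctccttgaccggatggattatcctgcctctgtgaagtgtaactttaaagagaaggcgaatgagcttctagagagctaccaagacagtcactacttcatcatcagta

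LINC00958 (ENSG00000251381), an RNA studied in bladder cancer, was the most abundant of these 10 members. It was at 5.57, 6.25 and 5.18 FPKM in shcon and at 8.01, 8.63 and 8.07 FPKM in shENO1 libraries, with a narrow spread in both groups and its log2 fold change was 0.47 (standard error 0.09, adjusted p = 0.0109 by limma, and 0.0574 without shENO1 replicate 2). LINC01560 was at 4.07, 6.29 and 3.50 FPKM in shcon and at 7.04, 7.76 and 7.84 FPKM in shENO1 libraries (0.63, adjusted p = 0.0296 by limma), where shcon replicate 2 lay closest to the shENO1 group. Its call was lost without shcon replicate 1 (adjusted p = 0.0998) and without shENO1 replicate 1, 2 or 3 (0.0514, 0.0955 and 0.0906). LINC02477, the member of lowest GC content (32.1%), was at 1.04, 0.795 and 0.764 FPKM in shcon and at 1.47, 2.25 and 1.90 FPKM in shENO1 libraries (0.62), and reached 0.25 (adjusted p = 0.344 by limma) after the GC and length correction. LINC01881 was at 0.702, 0.620 and 0.473 FPKM in shcon and at 1.01, 1.12 and 1.74 FPKM in shENO1 libraries (0.51), also without overlap. This gene, annotated as a transcribed pseudogene whose reads may be shared with near-identical copies, lost its call with the replicate number as a block (adjusted p = 0.0582, against 0.0402 without the block) and was called in 1 of the 6 fits that left out a library. The remaining called members, named to complete the set, were LINC01914 (0.47), LINC01411 (0.45), LINC01322 (0.45), LINC00662 (0.44), LINC01123 (0.43), LINC00667 (0.42) and LINC02582 (0.40). Each of these 7 was called in at most 3 of the 6 fits that left out a library, LINC00662 in 2. LINC00667 overlaps ZBTB14 on the opposite strand, so their reads cannot be told apart in the shared stretch. LINC00662, an RNA studied in gastric cancer, was at 0.464, 0.471 and 0.489 FPKM in shcon and at 0.919, 1.08 and 1.01 FPKM in shENO1 libraries. Its ratio of mean FPKM was 2.11, which the log2(FPKM + 1) scale understates at such levels, and all shENO1 libraries were above all shcon libraries. Its shcon mean of 0.475 FPKM was below the minimum, so it entered the list through the shENO1 libraries, where it is high.

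Among the members that were lower, LINC01589 (ENSG00000238120, chr22:45604432-45605621, minus strand) had the largest change and kept its call in all 20 alternative settings. It was at 2.02, 2.86 and 2.30 FPKM in shcon and at 0.559, 1.18 and 0.703 FPKM in shENO1 libraries, so that the groups were well apart. The log2 fold change was -0.91 (standard error 0.16, adjusted p = 0.00779 by limma), with 18, 25 and 21 fragments in shcon and 5, 11 and 6 in shENO1 libraries. The gene FBLN1, which encodes the extracellular matrix protein fibulin-1, lies 3297 bases away on the opposite strand and was lower as well (125 ± 27.3 FPKM in shcon and 70.8 ± 8.50 FPKM in shENO1, SD, n = 3 each, log2 fold change -0.79). GENCODE 29 classes LINC01589 as antisense. Since the sources used here do not state that the counting used strand, reads of a locus and of a partner on the other strand cannot be told apart where they overlap. Its promoter (RefSeq, GRCh38.p14, chr22:45605598-45605897, minus strand) is given for comparison with the higher members and holds none of the motifs searched for.
LINC01589: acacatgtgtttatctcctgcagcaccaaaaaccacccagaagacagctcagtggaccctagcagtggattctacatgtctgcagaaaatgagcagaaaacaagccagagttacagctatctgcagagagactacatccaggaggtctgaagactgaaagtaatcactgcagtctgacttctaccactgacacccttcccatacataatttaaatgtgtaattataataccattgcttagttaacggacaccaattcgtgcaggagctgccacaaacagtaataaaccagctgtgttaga

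LINC01133, an RNA studied in colorectal and gastric cancer, was at 1.47, 1.26 and 1.21 FPKM in shcon and at 0.433, 0.577 and 0.576 FPKM in shENO1 libraries. No library of either group came near the other group. It fell by 0.60 on the log2 scale (standard error 0.12, adjusted p = 0.0107 by limma, and 0.0521 without shcon replicate 1), and by 0.75 after the GC and length correction. TAGLN2, which encodes the actin-binding transgelin-2 and lies 32528 bases from LINC01133 (ENSG00000224259, chr1:159958035-159984750, plus strand), was lower by a similar size (-0.58). LINC00525 (ENSG00000146666) was at 6.56, 5.53 and 7.39 FPKM in shcon and at 3.82, 3.52 and 4.59 FPKM in shENO1 libraries, without overlap (log2 fold change -0.59, standard error 0.13, adjusted p = 0.0141). Its call was lost without shcon replicate 1 (adjusted p = 0.0546) and without shENO1 replicate 2 (adjusted p = 0.0642).

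Several lower members lost their call after the GC and length correction, which was fitted on genes of at least 5 FPKM. Whether its trends hold at lower levels was not tested. LINC00896 (ENSG00000236499, GC content 61.4%) was at 8.11, 7.23 and 6.87 FPKM in shcon and at 4.72, 4.02 and 4.65 FPKM in shENO1 libraries. The groups did not overlap, and the call (log2 fold change -0.62, standard error 0.10, adjusted p = 0.0062 by limma) held whichever library was left out. After the correction it was -0.08 (adjusted p = 0.548). LINC01311 (ENSG00000260924, GC content 63.1%) was at 1.91, 2.04 and 1.42 FPKM in shcon and at 0.848, 0.938 and 0.7999 FPKM in shENO1 libraries. The groups were apart, and it fell by 0.58 and turned to 0.08 (adjusted p = 0.727) after it, while LINC02298 (56.0%) went from -0.65 to -0.23 (adjusted p = 0.273) and LINC02732 (50.5%) from -0.66 to -0.41 (adjusted p = 0.157). As deposited, LINC02298 was at 1.39, 1.14 and 0.923 FPKM in shcon and at 0.479, 0.345 and 0.287 FPKM in shENO1 libraries, and LINC02732 at 1.61, 1.48 and 1.06 FPKM and at 0.343, 0.761 and 0.442 FPKM. Neither overlapped between the groups. The log2 fold change of LINC01058 was -0.84, but it had only 11, 12 and 4 fragments in shcon and 1, 0 and 4 in shENO1 libraries, its groups overlapped, and its adjusted p was 0.0423 without and 0.0722 with the replicate block. LINC00842 was at 3.29, 4.12 and 2.41 FPKM in shcon and at 2.11, 2.16 and 1.65 FPKM in shENO1 libraries (-0.51). LINC01186 was at 5.78, 8.03 and 5.26 FPKM in shcon and at 4.22, 3.76 and 4.70 FPKM in shENO1 libraries (-0.48, adjusted p = 0.0463, and 0.0618 with the block). Both were without overlap, and each was called only in the fit without shcon replicate 3 among the 6 that left out a library. LINC00842 overlaps the pseudogene HNRNPA1P33 on the same strand, which was lower too (-0.73), so their reads may be shared. The remaining lower members were LINC01895 (-0.47), LINC00853 (-0.40) and LINC01270 (-0.29), of which LINC00853 had 3 to 10 fragments per library and an adjusted p of 0.0688 with the block. LINC00853 overlaps CYP4A22-AS1 and LINC01895 overlaps the pseudogene RPL31P59, with which reads may be shared.

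**Figure D3:**
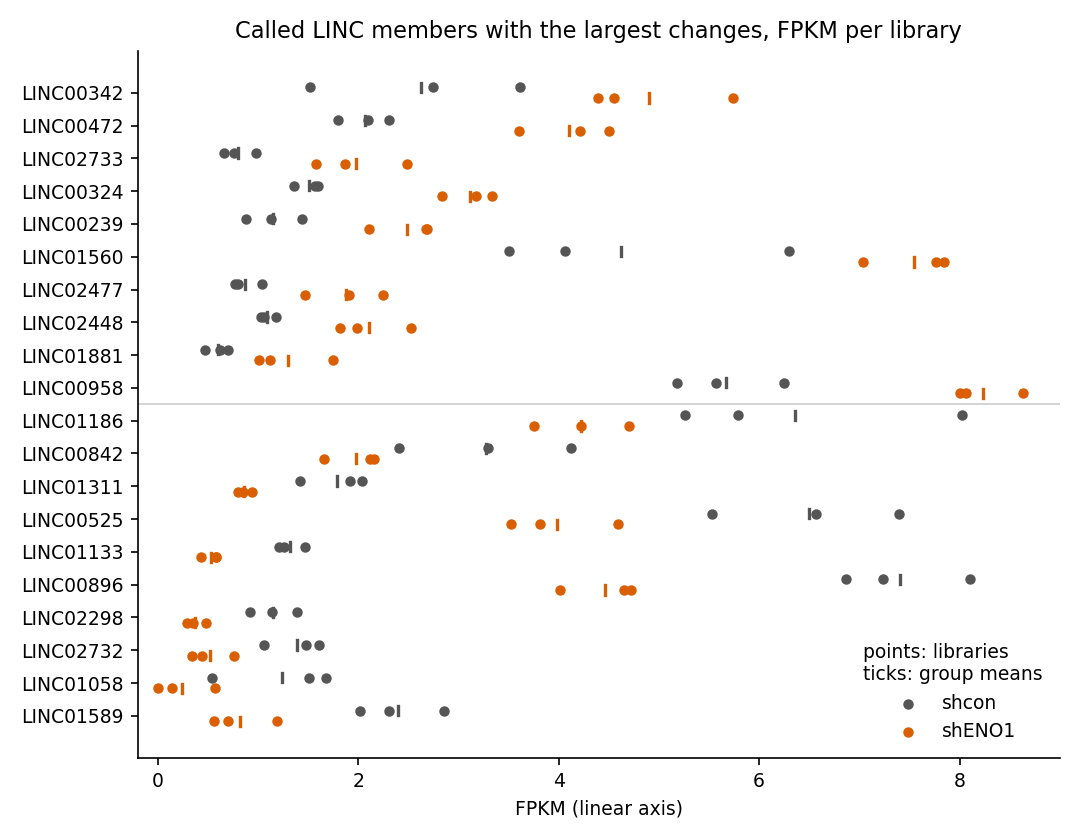
FPKM per library (horizontal linear axis) of the 10 higher (above the line) and 10 lower (below the line) called members of largest log2 fold change, with shcon libraries in grey, shENO1 libraries in orange and ticks at the group means (3 libraries each). The groups overlap in LINC01058 and are apart in the other members shown.

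Each of the 30 called members kept its direction in each fit that left out a library. The calls were less stable. Without shcon replicate 1, 2 or 3 there remained 8, 17 and 27 of the 30 calls, and without shENO1 replicate 1, 2 or 3 there remained 19, 8 and 11. LINC00239, LINC00324, LINC00472, LINC00896 and LINC01589 were called in all 6 of these fits, and LINC00853 and LINC01914 in none. The adjusted p of the calls lost by limma lay between 0.0502 and 0.155. Among the members, shcon replicates 3 and 2 departed in opposite directions. The summed FPKM of the 183 members was 343 in shcon replicate 3, against 388 to 430 in the other 5 libraries. That library held the lowest of the 6 values for 59 members. The largest sum, 430, was that of shcon replicate 2, which held the highest value for 54 members. Without shcon replicate 3 and shENO1 replicate 1, 23 members were higher and 26 lower.

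Of the 5 most abundant members, 1 passed the test. LINC02582, an RNA studied in breast cancer, was at 16.8, 19.003 and 13.8 FPKM in shcon and at 22.3, 22.8 and 20.9 FPKM in shENO1 libraries, apart in the 2 groups. It was called as higher (log2 fold change 0.40, standard error 0.12, adjusted p = 0.0406 by limma), and its adjusted p rose to 0.135 without shENO1 replicate 2. LINC00963, an RNA studied in prostate cancer, was at 22.1, 20.8 and 16.02 FPKM in shcon and at 16.3, 14.3 and 15.9 FPKM in shENO1 libraries, where shcon replicate 3 lay within the range of the shENO1 group (log2 fold change -0.31, adjusted p = 0.103). LINC00165 was at 14.9, 15.6 and 11.2 FPKM in shcon and at 20.3, 16.9 and 17.2 FPKM in shENO1 libraries, without overlap. It did not pass the test (log2 fold change 0.37, adjusted p = 0.0797) but did with the replicate block (adjusted p = 0.0435). LINC01836 was at 16.7, 17.8 and 11.8 FPKM in shcon and at 12.1, 9.37 and 11.1 FPKM in shENO1 libraries (-0.46, adjusted p = 0.0652). LINC00294 was at 12.7, 10.6 and 13.2 FPKM in shcon and at 10.7, 10.2 and 12.5 FPKM in shENO1 libraries (-0.12, adjusted p = 0.461), and both had overlapping groups. The list begins at LINC00319 and LINC02798 (both 0.506 FPKM on average), and the genes just below it were LINC01730 (0.497 FPKM) and LINC01772 (0.490 FPKM). In 22 members 1 group alone had a mean of at least 0.5 FPKM, shcon in 13 and shENO1 in 9, and 5 of the 22 were among the 30 called (LINC01058, LINC02298, LINC00853, LINC00662 and LINC01914). These 22 members entered only through the group in which they were higher, so their calls are not support for a difference.

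Of 10 LINC-named members listed as studied in tumors, LINC00662, which entered through the shENO1 group alone, was called higher and LINC01133 lower, as given above, and 8 did not pass the test. Among these 8, LINC00337 had no overlap between the groups (1.69, 1.19 and 1.40 FPKM in shcon, 1.09, 0.875 and 0.817 FPKM in shENO1) but an adjusted p of 0.0839 by limma at a log2 fold change of -0.33. LINC00857 was likewise apart at 0.20 (adjusted p = 0.149). LINC00511 (-0.05), LINC01234 (-0.02), LINC00665 (0.04) and LINC01503 (-0.11) had values that overlapped between the groups, as had LINC00707 (-0.00, with 6.59 FPKM in shcon replicate 3 against 3.70 and 3.83 FPKM in the other shcon libraries). Of 5 expressed loci known to encode microproteins, MTLN, which encodes the mitochondrial protein mitoregulin and was once named as a LINC gene, was lower (3.54 ± 0.497 FPKM in shcon and 2.13 ± 0.554 FPKM in shENO1, SD, n = 3 each, log2 fold change -0.54, adjusted p = 0.0323). LINC00467, whose transcript encodes a mitochondrial peptide, was at 0.646, 0.514 and 0.736 FPKM in shcon and at 1.05, 1.00 and 0.962 FPKM in shENO1 libraries. Its groups were apart, but its log2 fold change of 0.30 had an adjusted p of 0.0912. NBDY, SMIM30 and SMIM26 lay between -0.05 and 0.03.

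The called members were set beside other long noncoding RNAs in the same fit. Of 338 antisense-named genes (-AS) 10.1% were called, of 103 divergent transcripts (-DT) 9.71%, of 21 small nucleolar RNA host genes (SNHG) 28.6% and of 19 microRNA host genes 21.1%, against 34.9% of 11400 protein-coding genes. No test of these differences was made. Their median levels were 1.18 FPKM for -AS and 1.20 FPKM for -DT genes and 5.50 FPKM for SNHG genes. Of 10 genes that bore a LINC symbol earlier, MIR17HG, the host of the miR-17 cluster (0.64), NORAD, which binds PUMILIO proteins (0.38), and CRNDE (0.34) were higher, and TINCR (-0.47) and BRD3OS (-0.43) were lower. Of 21 other well studied long noncoding RNAs, LUCAT1 (1.02), TUG1 (0.59) and OIP5-AS1 (0.52) were higher, and NEAT1, the scaffold of paraspeckles, was lower (-0.31).

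The sequence composition of the members was compared with their change, as the selection did not use it. Exons of the members had a median GC content of 49.7% (48.9% for all genes tested), a median exon length of 2082 bases (4068 bases) and a median of 3 exons in the longest transcript (7 exons). Members that were higher had a median GC content of 45.7% and those that were lower 51.3%. Across the 183 members, which share the same 6 libraries, the GC content and the log2 fold change had a Spearman's rho of -0.31, given as a description, beside -0.61 across all genes tested. Of 76 members with 40% to 50% GC, 11 were higher and 3 lower, and of 25 members above 60% none was higher and 2 were lower. Of all genes tested in these bands, 1365 of 6403 were higher and 250 lower, and 26 of 2163 were higher and 928 lower. After the GC and length correction, 12 of the 30 calls remained (9 higher, 3 lower) and 18 others were called (15 higher, 3 lower). The median of the members was then 0.15, against 0.02 for all genes. The trends were fitted on genes of at least 5 FPKM, whereas the members had a median level of 1.19 FPKM. Whether the correction suits genes of that level was not tested, so calls lost or gained by it are given as a description. No member called in both fits changed direction.

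**Figure D4:**
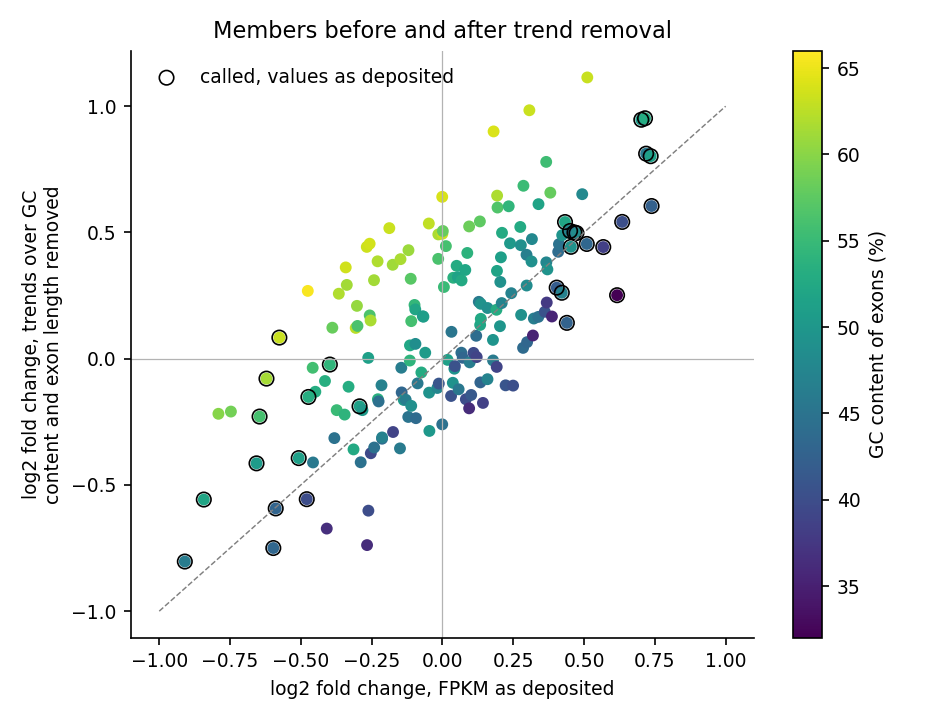
Log2 fold change of each of the 183 members with FPKM as deposited (horizontal axis) and after the GC and length correction (vertical axis), colored by the GC content of the exons, with a dashed line of equality and rings around the 30 called members. Members of high GC content lie above the line, and 12 of the 30 ringed members kept their call.

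By the classes of GENCODE 29, 144 members were lincRNAs, of which 15 were higher and 9 lower. The 16 members classed as antisense had 0 higher and 4 lower (LINC01589, LINC00525, LINC01311 and LINC00853), with 25.0% called. Of 7 transcribed unprocessed pseudogenes 1 was higher (LINC01881), and their reads may be shared with parent or sister copies. By chromosome, 3 of the 7 members on chromosome 22 were lower (LINC01589, LINC00896 and LINC01311) and none higher, and 4 of the 15 on chromosome 2 were higher (LINC00342, LINC01881, LINC01914 and LINC01123) and none lower. Over all chromosomes 15.1% of the genes tested were higher and 14.4% lower. These chromosomes were singled out after their values were seen, and with so few members nothing is read from the counts.

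Each member was then paired with the nearest tested gene that has a symbol and is not LINC-named. The 183 members had 173 distinct neighbors at a median gap of 7922 bases, and 36 overlapped theirs. Of the 30 called members, 10 had a called neighbor, in 8 cases in the same direction. Of 19 called members with a neighbor within 100 kilobases, 7 had a called neighbor, and these 7 pairs had the same direction. LINC00842 and HNRNPA1P33 are 1 of the 7 and may share reads. Among all 151 pairs of that window, 18 neighbors were higher and 29 lower, and 87 pairs had the same sign. Over all 183 members, 20 neighbors were higher and 37 lower, and 29.5% of all genes tested were called, so the 10 of 30 lay near the background. Lower together were LINC01589 and FBLN1, LINC01133 and TAGLN2, LINC00842 and HNRNPA1P33, LINC00896 and RTN4R (the Nogo receptor, -0.48), and LINC01311 and SLC25A1 (the mitochondrial citrate carrier, -1.29, 2742 bases away). Higher together were LINC02448 and SLC16A7, LINC00239 and PPP2R5C, and, 1836779 bases apart, LINC01322 and PDCD10 (0.49). LINC01123 and LINC01881 rose while MTLN (-0.54) and D2HGDH (-0.63), their nearest genes at 215389 and 319817 bases, fell. Across all pairs, Spearman's rho was 0.23, and 106 of 183 pairs had the same sign. The members share libraries and partly GC content with their neighbors, so the rho is given as a description. No test was made of whether a member and its neighbor move together more often than other pairs of genes.

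**Figure D5:**
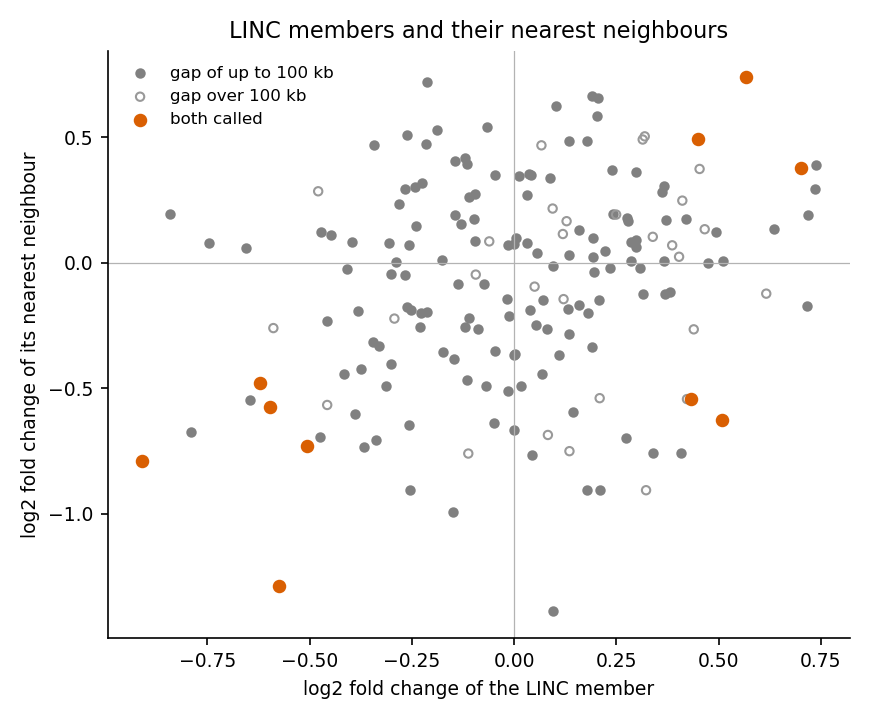
Log2 fold change of each LINC member (horizontal axis) and of its nearest tested neighbor (vertical axis), 183 pairs, with filled points for a gap of up to 100 kb, open points for larger gaps and orange points where both were called. Of the 10 orange points, 8 lie in the quadrants of equal sign.

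Head-to-head starts were looked at apart, since both transcripts can then arise from a shared promoter region. Of the 183 members, 40 started within 2 kilobases of a gene on the opposite strand. Only the distance between starts was used, so pairs that overlap are included. Of these 40, 3 members were called and 12 partners were called, and no pair was called on both sides. The 12 of 40 partners lay near the 29.5% called among all genes tested. LINC00667 was at 5.76, 6.31 and 6.34 FPKM in shcon and at 8.17, 8.80 and 8.70 FPKM in shENO1 libraries (log2 fold change 0.42, standard error 0.08, adjusted p = 0.0114 by limma), without overlap. LINC00526, which starts 772 bases from it on the other strand, was at -0.10 on the same scale (adjusted p = 0.604). LINC00526 and LINC00667 overlap, so their reads cannot be told apart in the shared stretch. LINC01560 rose by 0.63 and its partner ZNF41 at 349 bases had 0.14 (adjusted p = 0.301). Conversely, KMT2E (0.59), a chromatin regulator, and SLC12A2 (0.48), a sodium, potassium and chloride cotransporter, were higher beside LINC01004 (0.04) and LINC01184 (0.18), which did not pass the test. ANXA11 (-0.33), a calcium-binding annexin, and ICMT (-0.33), a carboxyl methyltransferase, were lower beside LINC00857 (0.20) and LINC00337 (-0.33, not called). LINC00337 overlaps ICMT on the opposite strand, so their reads cannot be told apart in the shared stretch. Among 8 pairs of members within 20 kilobases of each other, no pair was called on both sides. LINC00163 and LINC00165, 276 bases apart on the same strand of chromosome 21, both had higher values in all shENO1 than in all shcon libraries (0.51 and 0.37), with an adjusted p of 0.0564 and 0.0797, or 0.0292 and 0.0435 with the replicate block.

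Promoters were found in the RefSeq table for 132 of the 183 members, of which 83 started within 100 bases of the start in the table of the authors. They were searched on both strands for ACGTG and GCGTG, the cores bound by hypoxia-inducible factors, for TGATGNAA, bound by ATF4, and for TGANTCA, bound by AP-1. In CACGTG the first motif occurs on both strands, and the last motif is read alike on both. ACGTG occurred in 25.8% of member promoters, in 21.6% of all 27305 promoters of the table and in 27.2% of the 9966 promoters of genes tested here. GCGTG occurred in 40.9%, 36.3% and 51.4% of these, TGATGNAA in 2.27%, 3.67% and 1.54%, and TGANTCA in 6.82%, 7.76% and 4.23%. For each motif the members thus lay on 1 side of all promoters and on the other side of the promoters of genes tested. Of the 12 higher members with a promoter 1 held ACGTG, 4 GCGTG and 3 TGANTCA, and of the 8 lower members 1, 2 and 1. Among the lower members, ACGTG and TGANTCA were both in LINC01895, whose promoter lies 32973 bases from the start given by the authors. This distance was 855 bases for LINC01560 (GCGTG) and 138 bases for LINC02733 (TGANTCA). A match is a description of the sequence and not a binding site.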

How the data were processed

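RNA of 6 libraries labeled as SNU16 (3 shcon, 3 shENO1) was sequenced. The submitters' processing notes name cutadapt, featureCounts, MultiQC and GRCh38; for the aligner, annotation release and FPKM program, nothing is given in the sources used here. The authors deposited FPKM values per gene, in 1 table of 30716 genes. From these, log2(FPKM + 1) was computed and the 15181 genes averaging 0.5 FPKM or more were fitted with limma 3.58.1 in R 4.3.3 (lmFit, eBayes with trend), shENO1 against shcon, without covariates. p-values were adjusted by Benjamini-Hochberg over all 15181 genes and called under 0.05. The pseudocount understates the fold change of genes of low level.

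The members and gene lists were chosen with earlier results of these data known. The members named by rule were the 10 called in each direction with the largest absolute log2 fold change, the 5 most abundant, those just inside and outside the threshold and the members of the fixed lists; other members were named after their values were seen. Whole fragments were recovered from the steps of the FPKM values (tolerance 0.05), which gave 15572359 to 16963820 fragments per library with 94.1% to 94.9% of values whole. Classes, exon lengths and GC content came from GENCODE 29 for all 183 members. For the recovery of fragments, the annotated length was used for 101 members and a fitted length for 82. For the GC and length correction, trends with exon GC content and length were removed per library with natural splines (4 degrees of freedom) fitted on genes of at least 5 FPKM. This correction used the annotated exon length for every member, also for the 82 with a fitted length. Alternatives were other pseudocounts, filters, scalings and variance settings, limma-voom on recovered fragments, each library left out, and the replicate number as a block. Same-numbered libraries deviated together over all genes tested (correlations 0.23, 0.12 and 0.26) and less so over the members (0.19, 0.06 and 0.12). By a threshold of 0.1 over all genes, the numbers were taken to pair the libraries, though the labels do not state a shared batch. The main fit leaves this pairing out, and the fit with the block is given as an alternative. The fit was tested on simulated data. Python 3.11.15 and matplotlib 3.10.9 were used for summaries and figures. A marker gene that was examined is not reported here.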

Additional observations from a re-analysis of the deposited data

How the results depend on the processing

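The 17 higher and 13 lower members (2289 and 2188 of all genes) became 16 and 11 (2269 and 2164) at a pseudocount of 0.1. With the replicate block they became 21 and 11 (2927 and 2711), with 26 of the 30 calls shared. At a minimum of 1 FPKM, 13 and 8 of 102 members were called, beside 2333 and 2257 of 12871 genes. These were 20.6% of the members and 35.7% of the genes. Without a filter there were 7 and 5 (1402 and 1302), and after the GC correction 18 and 9 (1533 and 1310). The GC and length correction gave 24 and 6 (1727 and 1447), and with the block in addition 24 and 6 (1735 and 1365). By limma-voom on recovered fragments there were 31 and 12 (3075 and 2218). At an absolute log2 fold change of at least 1 there were 0 and 0 (125 and 169), on a scale that shrinks changes at low levels most. Omitting both shENO1 replicate 1 and shcon replicate 3 gave 23 and 26 (3595 and 3590). Leaving out 1 library gave 4 to 18 and 2 to 25 members, and 753 to 3028 and 756 to 2799 of all genes. The median of the members, 0.03, was -0.0075 after quantile normalization, 0.072 after the GC correction, 0.15 after the GC and length correction with or without the block, 0.10 by limma-voom, -0.039 without those libraries together, and -0.036 to 0.073 with 1 library left out. The cause was not tested.

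Some named members changed sign. After the GC and length correction, with or without the block, LINC01311 was at 0.084, LINC00319 at 0.12, LINC01503 at 0.32 and LINC00665 at -0.040, and after the GC correction alone LINC00319 was at 0.17 and LINC01503 at 0.15. LINC00707 was at 0.0053 and 0.0021 with pseudocounts of 0.1 and 0.5 and at 0.048 by limma-voom, by which LINC01234 was at 0.0016. Without shENO1 replicate 1 and shcon replicate 3 together, LINC00511 was at 0.029, LINC00707 at 0.31 and LINC00665 at -0.003. With 1 library left out, LINC00511 ranged from -0.081 to 0.0038, LINC01234 from -0.057 to 0.016, LINC00707 from -0.12 to 0.22 and LINC00665 from -0.014 to 0.093. Of these members LINC01311 alone was called in the fit as reported. The cause was not tested. With the block, the calls of LINC01058, LINC01186, LINC00853 and LINC01881 were lost and 6 were gained, among them LINC00163 and LINC00165. Counts of neighbors within 100 kilobases were of similar size, and no other promoter window was run. Depth limits members such as LINC01058, LINC00853 and LINC01914, which had at most 20 fragments in any library.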
